A study of Mus musculus with 10 samples.

Results

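The core circadian clock genes of the liver were followed in mice fed a high-fat diet (HFD), in wild type animals and in animals of the genotype Cpt1a L-/-, called knockout here. The group holds the 10 genes Arntl, Npas2, Clock, Per1, Per2, Per3, Cry1, Nr1d1, Nr1d2 and Dbp, taken by symbol from a deposited table of 51911 genes, and each symbol matched 1 row. RNA sequencing was done on 10 liver samples of the strain C57BL/6 after 8 weeks on the diet, 5 of genotype Wild type and 5 of genotype Cpt1a L-/-. Cpt1a encodes the liver form of the enzyme that loads long-chain fatty acids for entry into mitochondria. Both genotypes received the diet. The labels used here state neither the age, nor how the deletion was made, nor the hour at which livers were taken, and the hour bears directly on genes that cycle over the day.

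The clock is a loop of transcription factors. ARNTL (also called BMAL1) pairs with CLOCK or its relative NPAS2 and switches on the Per, Cry, Nr1d and Dbp genes through E-box motifs; PER and CRY proteins then block the pair, and the NR1D receptors repress Arntl, Npas2, Clock and Cry1 through ROR elements. In mouse liver, transcripts of Arntl, Npas2 and Clock are known to peak around the start of the light phase, Nr1d1 near its middle, Dbp, Nr1d2 and Per3 later in it, Per1 and Per2 around dusk, and Cry1 in the night. Feeding time sets the liver clock, and mice eating a high-fat diet are known for altered feeding rhythms.

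Total counts lay between 20599099 and 26955958 per library. Cpt1a fell from 430.1 ± 85.8 to 80.0 ± 9.19 CPM (SD, n = 5 each, edgeR adjusted p = 1.92e-05), where CPM is the count scaled to library size and between libraries. The 6 hepatocyte markers summed to between 79400 and 109000 CPM in every library, those of skeletal muscle to at most 0.833 and those of exocrine pancreas to at most 1.73 CPM. The summed markers of Kupffer, stellate, endothelial, bile duct, lymphoid, neutrophil, erythroid and fat cells overlapped between the genotypes, and no marker passed the test. In whole liver, fewer cells of a type and less RNA per cell cannot be told apart. Along the first principal component of all genes tested, with 34.2% of the variance, wild type replicates 1 and 2 lay at -38.44 and -41.76, at the far end from wild type replicates 3, 4 and 5 at 25.15, 31.05 and 27.96. Along the second component, with 16.9% of the variance, knockout replicates 3 and 5 lay highest, at 27.24 and 34.31.

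Every liver showed the same order of extremes among the clock genes, with Dbp high and Arntl and Npas2 near the bottom. Levels between genes are compared in TPM, the authors' length-corrected measure. Dbp, an activator that carries the clock's output to liver enzymes, averaged 95.3 ± 7.06 TPM in wild type and 116 ± 23.8 TPM in knockout livers (SD, n = 5 each). The repressor gene Nr1d1 (Rev-erb alpha) averaged 27.8 ± 9.59 and 27.3 ± 9.30 TPM, and its relative Nr1d2 (Rev-erb beta) 14.9 ± 4.89 and 16.2 ± 2.17 TPM. The Period genes followed, Per3 above Per2 and Per2 above Per1. At the lower end stood Cry1 at 2.12 ± 0.595 and 2.13 ± 0.516 TPM, Clock at 1.88 ± 0.825 and 1.67 ± 0.274 TPM, and Arntl at 0.65 ± 0.236 and 0.562 ± 0.154 TPM.

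**Figure D1:**
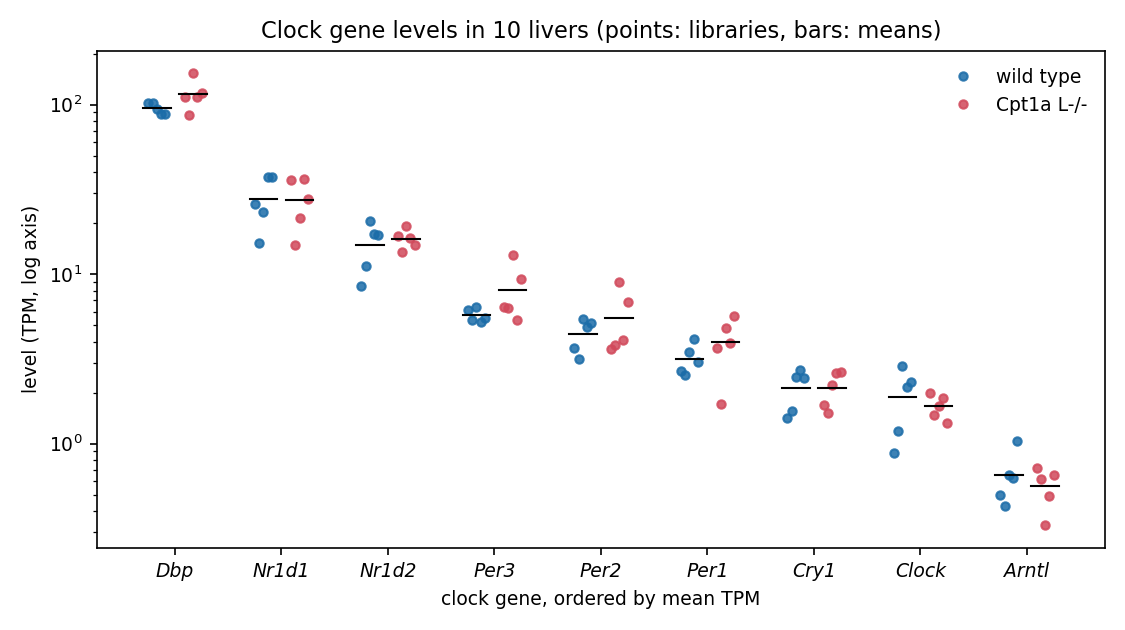
Level of 9 clock genes in TPM (log axis) in each of the 5 wild type (blue) and 5 Cpt1a L-/- livers (red), with bars at the group means; Npas2, at 0 to 0.05 TPM, is not drawn. Dbp lies above all others in every library and Arntl lies lowest, between 0.33 and 1.04 TPM.

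In the order of mean levels, Dbp, never below 87.1 TPM, stayed clear of its neighbour Nr1d1, and Npas2, never above 0.05 TPM, stayed clear of its neighbour Arntl. The other 7 pairs of neighbours had ranges that overlapped across the 10 libraries. Within a library the order Nr1d1, Nr1d2, Per3, Per2 held all the same in 10 of 10 libraries, as did Per1 over Cry1 and Clock over Arntl. Per2 was above Per1 in 9 of 10 and Cry1 above Clock in 8 of 10.

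The ratio of Dbp to Arntl within a library does not depend on library size, and it separates genes that peak at opposite times of the day. It does depend on the length correction in TPM, which differed between libraries for these genes. In wild type livers it was 204, 239, 145, 141 and 85 in replicates 1 to 5, as a ratio of TPM values. In knockout livers it was 154, 141, 464, 227 and 182. Dbp thus exceeded Arntl at least 85-fold in each of the 10 livers, and knockout replicate 3 lay above all others. The values rest on few Arntl reads, between 18 and 65 per library. The labels give no sampling time, so these values order the libraries in this unit and assign no phase to them.

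None of the clock genes differed between the genotypes beyond the spread of the libraries. Of the 10 genes, 9 passed the filter on low counts, and 0 of these 9 were called by edgeR's quasi-likelihood test at an adjusted p under 0.05, where 0.132% of the 13619 genes tested were called, 0.0808% as higher in the knockout and 0.0514% as lower. At an unadjusted p under 0.05 there were also 0 of 9, against 4.82% of all genes (2.56% higher and 2.25% lower in the knockout). DESeq2 called 0, and so did limma-voom with library quality weights, which ran from 0.449 (wild type replicate 1) to 1.836 (wild type replicate 5). The wild type and knockout libraries overlapped for all 9 genes, where 1.05% of all genes tested had none. Log2 fold changes, given as knockout over wild type, were positive for 5 and negative for 4 of the 9, with a median of 0.05 against -0.02 over all genes tested. No label ties each library to its own animal, so the p-values cover the spread among the libraries, which may be technical.

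**Figure D2:**
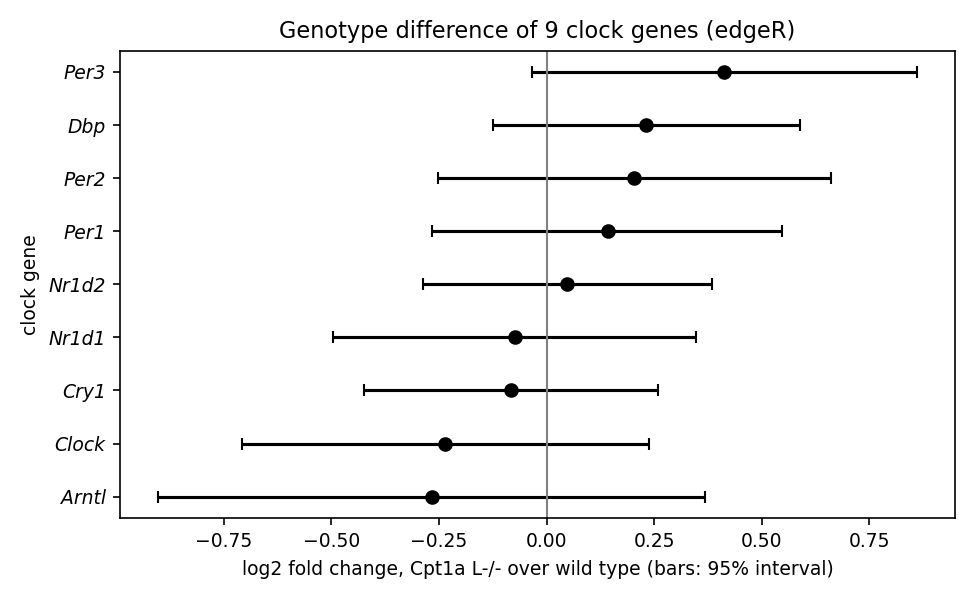
Log2 fold change of 9 clock genes, Cpt1a L-/- over wild type, with 95% intervals from the edgeR fit (5 libraries each). All 9 intervals include 0; Per3 lies highest at 0.41 and Arntl lowest at -0.27.

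Among the activators, Arntl had 1.42, 1.01, 1.62, 1.39 and 2.30 CPM in wild type replicates 1 to 5. Knockout replicates 1 to 5 had 1.70, 1.64, 0.686, 1.05 and 1.43 CPM. Wild type replicate 5 was highest and knockout replicate 3 lowest, with the rest of both genotypes intermixed. The knockout over wild type difference was -0.27 ± 0.29 on the log2 scale (SE, adjusted p = 1.0 in edgeR), with a 95% interval from -0.90 to 0.37. It was -0.08 without wild type replicate 5, -0.10 without knockout replicate 3 and -0.49 with limma-voom under library quality weights. With limma on log2(TPM + 1) it was -0.07, but adding 1 draws fold changes towards 0 for a gene of at most 1.04 TPM. Arntl was not called in any of these fits. The interval spans 0.535-fold to 1.29-fold, so neither a fall to about that level nor a small rise could be told from no change in these libraries.

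Clock, which encodes the partner of ARNTL, had 10.0, 15.2, 25.9, 17.6 and 18.7 CPM in wild type replicates 1 to 5. In the knockout it had 16.7, 18.3, 13.1, 15.1 and 11.2 CPM. The wild type libraries alone spanned the whole range of the knockout, from a low in replicate 1 to a high in replicate 3. Its log2 fold change was -0.24 ± 0.22 (adjusted p = 1.0, 95% interval -0.71 to 0.24), was -0.05 without wild type replicate 3 and -0.47 without wild type replicates 1 and 2, and was called in none of these fits. Npas2, the alternative partner, had 3, 1, 1, 3 and 1 counts in wild type and 0, 3, 1, 5 and 2 counts in knockout replicates 1 to 5. Npas2 did not pass the filter on low counts, and no fold is given. In the edgeR fit without that filter it was not called (adjusted p = 0.994). The limit that a count of 0 allows, 3 counts, corresponds to 0.111 to 0.146 CPM in these libraries.

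Among the repressors, Nr1d1 had 78.3, 53.7, 60.7, 86.0 and 84.7 CPM in wild type replicates 1 to 5. Knockout replicates 1 to 5 had 91.6, 51.1, 51.1, 84.5 and 67.1 CPM. High and low libraries occurred in both genotypes, and the log2 fold change was -0.07 ± 0.19 (adjusted p = 1.0, 95% interval -0.50 to 0.35). Its sign was not stable, and the value became 0.02 without knockout replicate 2 and likewise without knockout replicate 3. Nr1d1 (chromosome 11, 98767932 to 98775333 of GRCm38) shares 263 exon bases with Thra, the thyroid hormone receptor gene on the opposite strand. Whether the counting kept strand is not stated in the labels. Thra had between 196 and 353 counts per library, against 954 to 2409 for Nr1d1.

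Nr1d2 had 47.9, 69.8, 95.3, 71.8 and 70.8 CPM in wild type replicates 1 to 5. In knockout replicates 1 to 5 it had 75.2, 81.4, 77.8, 67.4 and 66.0 CPM. The lowest and the highest library were both wild type, and the knockout libraries lay between them. The log2 fold change of 0.05 ± 0.16 (adjusted p = 1.0) had a 95% interval from -0.29 to 0.39, and became -0.07 without wild type replicate 1.

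Cry1, whose protein represses CLOCK and ARNTL, had 4.71, 5.85, 6.87, 6.79 and 5.97 CPM in wild type replicates 1 to 5. In the knockout it had 4.47, 5.52, 5.27, 6.44 and 6.81 CPM. The genotypes overlapped almost fully, and the highest library was 1.54 times the lowest, the narrowest range among the 9 tested genes. Cry1 had a log2 fold change of -0.08 ± 0.16 (adjusted p = 1.0, 95% interval -0.42 to 0.26), which was 0.01 when only library totals were used for scaling.

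The Period genes encode the repressors that pair with CRY proteins. Per3 had 32.9, 30.6, 33.0, 23.8 and 26.0 CPM in wild type replicates 1 to 5. In the knockout it had 30.0, 38.9, 57.0, 23.9 and 44.9 CPM. Knockout replicates 2, 3 and 5 lay above every wild type library, and knockout replicates 1 and 4 lay within the wild type range. At 0.41 ± 0.21, the log2 fold change of Per3 was the largest of the 9 clock genes (unadjusted p = 0.0675, adjusted p = 1.0, 95% interval -0.03 to 0.86). Permuting the genotypes over log2 CPM gave an exact two-sided p of 0.19, and 5 against 5 libraries cannot go below 0.00794. The difference was 0.24 without knockout replicate 3, and without knockout replicates 3 and 5 it was 0.09.

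Per2 had 24.8, 24.0, 31.3, 25.1 and 25.7 CPM in wild type replicates 1 to 5. Knockout replicates 1 to 5 had 19.5, 28.8, 44.7, 20.7 and 37.1 CPM. The knockout livers lay on both sides of the wild type range, replicates 1 and 4 below all of it and replicates 3 and 5 above all of it. Per2 had a log2 fold change of 0.20 ± 0.21 (adjusted p = 1.0, 95% interval -0.25 to 0.66), was 0.02 without knockout replicate 3 and -0.18 without knockout replicates 3 and 5.

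Per1, the Period gene that also responds at once to glucocorticoids and cAMP, had 14.1, 15.1, 15.2, 16.2 and 11.7 CPM in wild type replicates 1 to 5. In the knockout it had 15.3, 9.63, 17.2, 15.2 and 22.3 CPM. Knockout replicate 2 was lowest and knockout replicate 5 highest of all 10. The log2 fold change of 0.14 ± 0.19 (adjusted p = 1.0, 95% interval -0.27 to 0.55) became -0.01 without knockout replicate 5.

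Upstream of the start sites, 3 of the 9 genes with a RefSeq promoter entry (GRCm38.p6) held a clock motif within 250 bases. The search covered the E-box CACGTG, the D-box as TTATGTAA or TTACGTAA, and the ROR element by its name, on both strands. Of 32851 promoters, 6.02% held the E-box, 0.931% a D-box and 0.332% the ROR element. Per2 had no entry. The windows around these matches are shown because DBP is known to bind D-boxes and the ARNTL pair E-boxes; capitals mark the motif, and no annotated exon overlaps the windows.
Per1 (chr11:69098743-69098828, plus strand): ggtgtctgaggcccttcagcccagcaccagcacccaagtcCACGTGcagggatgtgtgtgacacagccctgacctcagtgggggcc
Per3 (chr4:151044776-151044910, minus strand): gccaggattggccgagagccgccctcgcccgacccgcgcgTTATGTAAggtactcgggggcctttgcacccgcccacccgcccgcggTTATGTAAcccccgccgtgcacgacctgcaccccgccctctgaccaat
Cry1 (chr10:85185069-85185154, minus strand): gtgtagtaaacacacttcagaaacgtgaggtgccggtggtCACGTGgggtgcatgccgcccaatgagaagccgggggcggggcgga
The E-box begins 166 bases before the first listed start site of Per1 and 60 bases before that of Cry1, and the pair of D-boxes begins 205 and 158 bases before that of Per3. These are matches of letters, not shown binding sites, and the other promoters lack these letters only within this window. The Per1 window lies inside the annotated gene, which begins at 69095217 on the plus strand of chromosome 11 in GENCODE M21.

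Dbp, the output factor, had 159, 175, 121.5, 101.8 and 101.3 CPM in wild type replicates 1 to 5. In the knockout it had 139.6, 158.5, 182, 145 and 148.5 CPM. Wild type replicates 4 and 5 were lowest, knockout replicate 3 was highest, and the genotypes overlapped. Dbp had a log2 fold change of 0.23 ± 0.16 (adjusted p = 1.0, 95% interval -0.12 to 0.59), which was 0.52 without wild type replicates 1 and 2 and again not called. On the length-corrected scale the wild type libraries drew together, at 102.1, 103, 94.4, 88.5 and 88.4 TPM in replicates 1 to 5, and the knockout libraries had 110.7, 87.1, 153, 111 and 118 TPM. Knockout replicates 1, 3, 4 and 5 then lay above all wild type libraries and replicate 2 below them. With log2(TPM + 1) in limma the log2 fold change was 0.26, again not called (adjusted p = 1.0). Dbp (chromosome 7, 45705088 to 45710203) shares 539 exon bases with Sphk2, a lipid kinase gene on the opposite strand, which had between 741 and 1221 counts per library against 2850 to 5046 for Dbp. Sphk2 itself was at 41.9 ± 3.42 and 39.9 ± 3.83 CPM (adjusted p = 1.0).

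Spread between libraries was set beside genotype by the standard deviation of log2 CPM around the genotype means. Its median over the 9 clock genes was 0.353, against 0.293 over all genes tested, and Arntl (0.46), Clock (0.40), Per2 (0.38) and Per3 (0.38) lay highest. Clock, Per2, Per3 and Nr1d1 exceeded 84.3%, 85.5%, 85.3% and 83.5% of the genes within 0.5 of their own mean log2 CPM. Arntl exceeded 56.1% and Cry1 26.3% of the genes of their abundance. On the scale of log2(TPM + 0.1) the medians were 0.397 and 0.384, so the clock genes stood less apart there.

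**Figure D3:**
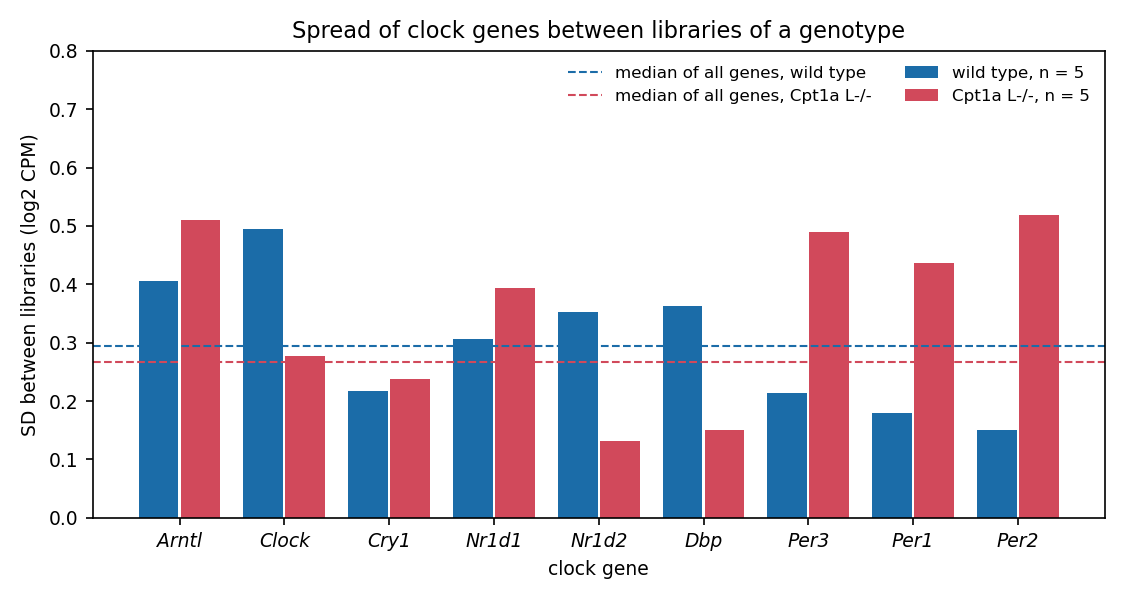
Standard deviation of log2 CPM between the 5 libraries of each genotype for 9 clock genes, with dashed lines at the medians of all genes tested (0.294 wild type, 0.267 Cpt1a L-/-). Per1, Per2 and Per3 have the taller bar in the knockout, Clock, Nr1d2 and Dbp in wild type.

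The Period genes had larger standard deviations among knockout than among wild type livers. The standard deviation of log2 CPM was 0.52 against 0.15 for Per2, 0.49 against 0.21 for Per3 and 0.44 against 0.18 for Per1. Ratios at least as large as that of Per2, 3.44, occurred in 1.77% of all genes tested, and the shares for Per1 and Per3 were 5.51% and 6.68%. An exact permutation test of the libraries' distances from their genotype median, chosen after the values were seen, gave p = 0.0556 for Per2, 0.302 for Per1 and 0.19 for Per3, so the difference in spread did not pass. Without knockout replicates 3 and 5 the knockout values were 0.302 for Per2, 0.35 for Per3 and 0.379 for Per1. Without wild type replicate 3 the wild type value of Per2 was 0.041. For Per1 the knockout value was 0.259 without knockout replicate 2, and the wild type value 0.082 without wild type replicate 5. On log2(TPM + 0.1) the ratio of knockout to wild type was smaller for Per2, at 1.72 (exact permutation p = 0.484), and was 2.30 for Per1 and 4.0 for Per3 (exact permutation p = 0.437 and 0.262).

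Dbp and Nr1d2 went the other way on this scale, with 0.36 in wild type against 0.15 in knockout for Dbp and 0.35 against 0.13 for Nr1d2. Without wild type replicates 1 and 2 the wild type value of Dbp was 0.15, level with the knockout, and without wild type replicate 1 that of Nr1d2 was 0.215. For Dbp that order depended on the unit, since the values were 0.107 and 0.29 on log2(TPM + 0.1). For Nr1d2 it did not, at 0.516 and 0.193. Neither difference in spread passed the exact permutation test (p = 0.127 for Dbp and 0.452 for Nr1d2 on log2 CPM).

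**Figure D4:**
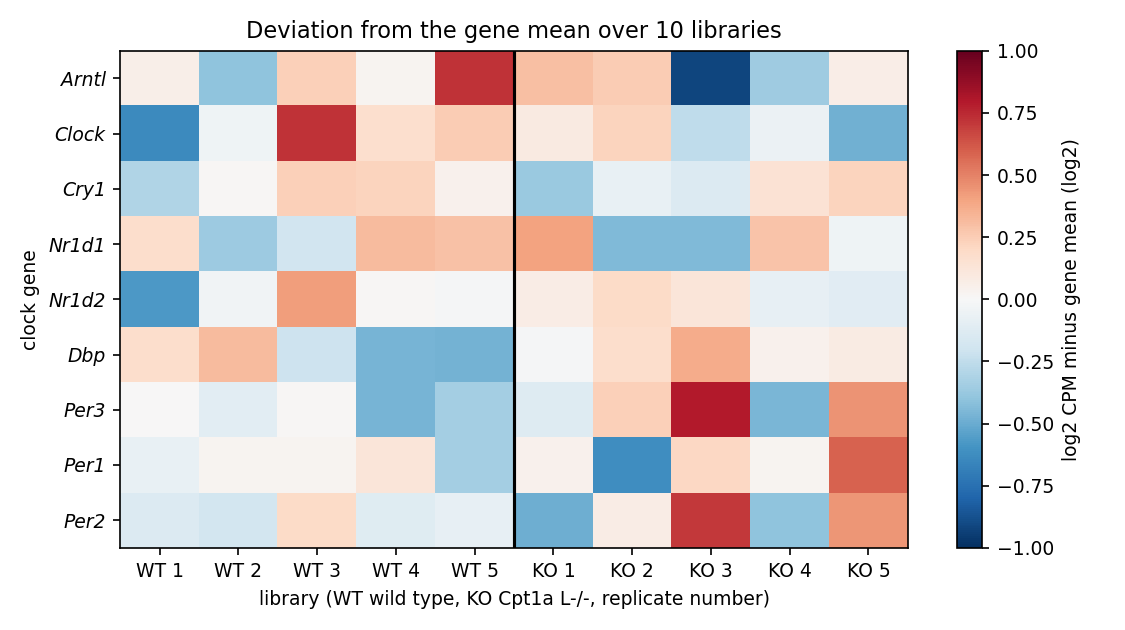
Deviation of log2 CPM from each gene's mean over 10 libraries, for 9 clock genes (rows) and the wild type and Cpt1a L-/- libraries (columns, split by the line); red is above and blue below the mean. Knockout replicate 3 is high in Per3, Per2 and Dbp and low in Arntl and Nr1d1, and knockout replicate 5 is high in Per1, Per2 and Per3.

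A contrast of morning against daytime genes summarised each liver. It is the mean of Arntl, Npas2 and Clock minus the mean of Nr1d1, Nr1d2, Dbp and Per3, in log2 CPM centred per gene. Wild type replicates 1 to 5 had 0.02, -0.15, 0.21, 0.32 and 0.33. Knockout replicates 1 to 5 had -0.26, 0.29, -0.73, 0.19 and -0.21. Knockout replicate 3 lay lowest, and the genotypes overlapped. Npas2, with 0 to 5 counts, weighs as much here as Arntl or Clock, and the place of single livers depended on it. Without it wild type replicates 1 to 5 had -0.24, -0.18, 0.47, 0.25 and 0.62, and knockout replicates 1 to 5 had 0.11, 0.20, -0.80, -0.15 and -0.30. Wild type replicate 1 and knockout replicates 1 and 4 thus changed sign. With Clock as the sole morning gene, wild type replicate 1 (-0.58) and knockout replicate 5 (-0.57) lay below knockout replicate 3 (-0.46). On log2(TPM + 1), wild type replicate 2 was at 0.20 and knockout replicate 4 at -0.09, so the contrast orders the livers only loosely. That scale also draws differences in Arntl and Npas2 towards 0, because both lie low in TPM. The genes within a side of the contrast did not all move together in log2 CPM. Among the daytime genes, Nr1d1 ran against Per3 (Pearson's r = -0.712) and Dbp (-0.627), while Per3 and Dbp went together (0.651). Between the sides, Clock and Nr1d2 went together (0.831), while Arntl and Dbp ran against each other (-0.682). None of these pairs passed the permutation test after adjustment over 45 pairs. With all genes of the contrast the means were 0.15 ± 0.21 in wild type and -0.15 ± 0.41 in knockout livers (SD, n = 5 each), a difference of -0.29, given without a test because it is a score over chosen genes. It was -0.14 without knockout replicate 3, -0.07 without knockout replicates 3 and 5 and -0.43 without wild type replicates 1 and 2. It was -0.37 without Npas2, -0.34 with Clock as the sole morning gene, -0.24 on log2(TPM + 1) and -0.52 for Arntl against Dbp alone.

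Pairs of clock genes were compared across the 10 libraries, 45 pairs in all. None passed after adjustment over the 45, and 6 had an unadjusted permutation p of Pearson's r under 0.05. The closest pair was Per2 and Per3, with r = 0.851 (permutation p = 0.00218, adjusted 0.0981) and Spearman's rho = 0.733 (permutation p = 0.0205, adjusted 0.268). With the genotype means removed r was 0.877 (permutation p = 0.0138, adjusted 0.311). Without knockout replicates 3 and 5, the libraries farthest from the median of Per2, it was 0.495, and -0.024 in log2 TPM, so the relation rests on those livers.

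**Figure D5:**
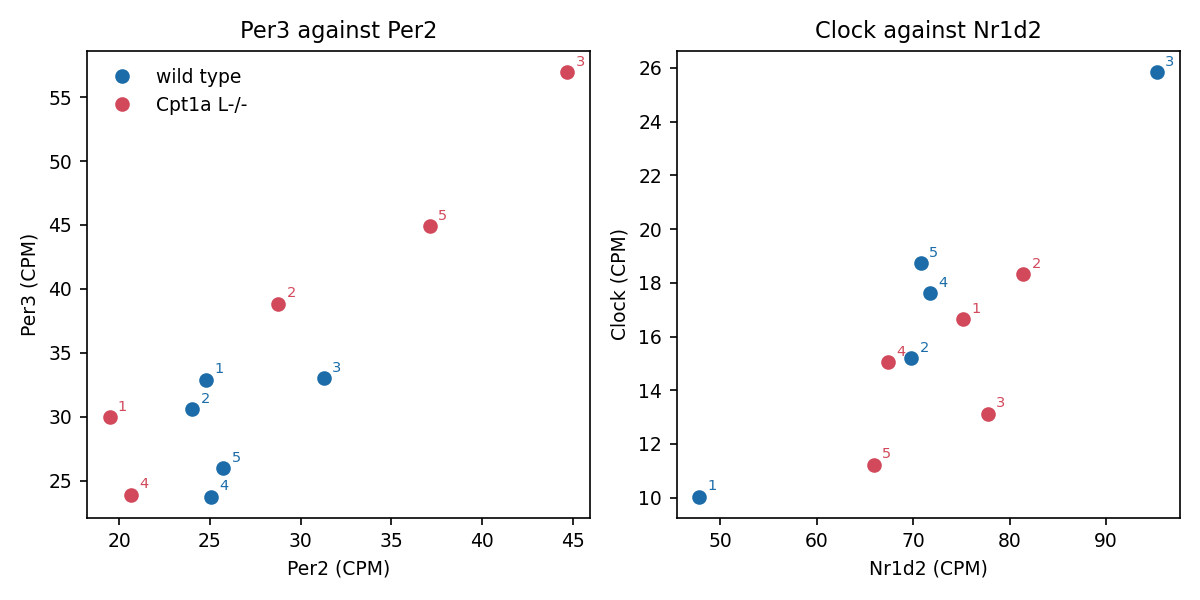
Per3 against Per2 (left) and Clock against Nr1d2 (right), both in CPM, for 5 wild type (blue) and 5 Cpt1a L-/- (red) libraries, numbered by replicate. Knockout replicates 3 and 5 form the upper end of the left panel, and wild type replicates 1 and 3 the ends of the right panel.

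Clock and Nr1d2 were high and low in the same livers, with r = 0.831 (permutation p = 0.00509, adjusted 0.115) and rho = 0.721 (permutation p = 0.0238, adjusted 0.268). Without wild type replicates 1 and 3 r was 0.429. On log2(TPM + 0.1), over 36 pairs without Npas2, this was the single pair to pass for r (r = 0.898, adjusted permutation p = 0.00864), but not for rho (0.855, adjusted permutation p = 0.0986). Arntl and Dbp, which peak at opposite times, had r = -0.682 (permutation p = 0.0281, adjusted 0.31) and rho = -0.636 (permutation p = 0.0535, adjusted 0.334), and r = -0.323 without wild type replicate 5 and knockout replicate 3. In log2 TPM that pair had r = -0.662 (permutation p = 0.0421, adjusted 0.197) and rho = -0.401 (permutation p = 0.252). Nr1d1 and Per3 had r = -0.712 (permutation p = 0.0212, adjusted 0.31) and rho = -0.794 (permutation p = 0.00919, adjusted 0.268), and r = -0.723 without knockout replicates 3 and 5. That relation depended on the unit, with r = -0.208 (permutation p = 0.587) and rho = -0.358 (permutation p = 0.313) in log2 TPM. Nr1d1 and Dbp had r = -0.627 (permutation p = 0.0592, adjusted 0.381) and rho = -0.733 (permutation p = 0.0209, adjusted 0.268). In log2 TPM they had r = -0.044 (permutation p = 0.91). The signs of these pairs thus did not all follow the known peak times, since Nr1d1, Dbp and Per3 peak in the middle or later light phase, and Clock before Nr1d2.

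The overall differences between libraries moved with some of these genes. On log2 CPM, Dbp had r = -0.792 with the first component (permutation p = 0.00605, adjusted over 18 relations 0.109) and rho = -0.855 (permutation p = 0.00285, adjusted 0.0513), and r = -0.778 without wild type replicates 1 and 2. A correlation at least that strong was found for 19.7% of all genes tested, and for Dbp in TPM it was -0.206. Clock had r = 0.615 in log2 CPM (permutation p = 0.0594, adjusted 0.267) and 0.912 in log2 TPM (permutation p = 7e-05, adjusted 0.00126), with rho = 0.564 and 0.915 (permutation p = 0.0967 and 0.00044) and, without the same libraries, r = 0.523 and 0.854. In log2 TPM, Nr1d2 also passed with the first component (r = 0.805, permutation p = 0.00234, adjusted 0.0211; rho = 0.794, permutation p = 0.00825, adjusted 0.0371), and had r = 0.566 without those libraries and 0.459 in log2 CPM (permutation p = 0.192). Wild type replicates 1 and 2, at the low end of that component, had summed erythroid markers of 1010 and 1020 CPM, against 329 to 734 in the other livers. With the second component, Per1 had r = 0.725 in log2 CPM (permutation p = 0.0167, adjusted 0.15) and rho = 0.745 (permutation p = 0.0175, adjusted 0.107), and r = 0.416 without knockout replicates 3 and 5. In log2 TPM the relation of Per1 passed (r = 0.808, permutation p = 0.00413, adjusted 0.0248; rho = 0.818, permutation p = 0.00596, adjusted 0.0371), with r = 0.607 without these livers. Dbp passed with the second component in log2 TPM (r = 0.761, permutation p = 0.00901, adjusted 0.0405; rho = 0.806, permutation p = 0.00714, adjusted 0.0371), with r = 0.53 without them, but had r = 0.219 in log2 CPM (permutation p = 0.545). Among all genes tested in log2 TPM, 4.88% were at least as strongly correlated with the first component as Clock, and 18.8% as Nr1d2. For the second component the shares were 7.06% for Per1 and 11.3% for Dbp. Knockout replicates 3 and 5 were also the livers with the lowest summed bile duct markers, 21.6 and 21.4 CPM against 38.7 to 123 in the others, and with summed stellate markers of 121 and 125 CPM against 126 to 224. The part of these differences in the clock gene values was not tested.

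Further parts of the clock machinery also held no gene called between the genotypes, where 0.132% of all genes tested were called. At that share, a count of 0 in lists this short says little about their genes. The list of loop partners, chosen like the following lists with earlier results of these data known, had 0 of 9 genes that rose and 0 that fell (edgeR, 0 with an unadjusted p under 0.05), with a median log2 fold change of 0.04. Bhlhe41 and Bhlhe40, which encode the repressors DEC2 and DEC1, had log2 fold changes of 0.50 ± 0.23 and -0.34 ± 0.18, and the activator gene Rora -0.25 ± 0.23 (adjusted p = 1.0 each). In the list of kinases, ubiquitin ligases and cofactors of the clock proteins, 0 of 17 rose and 0 fell (0 with an unadjusted p under 0.05), with a median of -0.00. The ligase gene Fbxl21 (0.20 ± 0.20), Timeless (0.14 ± 0.16) and the acetyltransferase gene Crebbp (-0.10 ± 0.13) had the smallest p there.

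Rhythmic liver outputs had 0 of 12 genes called in either direction, where 0.132% of all genes tested were called. At an unadjusted p under 0.05 there were 3 of the 12, against 4.82% of all genes. Alas1, the rate-limiting enzyme of heme synthesis and a target of DBP and its relatives, was at 282.5, 313, 331, 394 and 407 CPM in wild type replicates 1 to 5. In the knockout it was at 614.5, 375, 624, 614 and 429 CPM. Knockout replicate 2 was the single knockout library within the wild type range, and the log2 fold change of 0.62 ± 0.17 did not pass (unadjusted p = 0.00321, adjusted p = 0.405). Pnpla2, the fat lipase gene, had 0.36 ± 0.13 (adjusted p = 0.782) and Lpin1, the phosphatidate phosphatase gene, -0.66 ± 0.28 (adjusted p = 0.991).

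In the list of glucocorticoid, fasting and feeding responses 0 of 11 genes rose and 1 fell, where 0.0514% of all genes fell. At an unadjusted p under 0.05 there were 3 of the 11, against 4.82% of all genes. The lipogenic factor gene Srebf1 had a log2 fold change of -0.62 ± 0.14 (adjusted p = 0.203) with no overlap between the genotypes, as had 1.05% of all genes tested. Pck1, of gluconeogenesis, had 0.47 ± 0.20 (adjusted p = 0.995). The glucocorticoid targets Fkbp5 (0.01 ± 0.24) and Tsc22d3 (-0.13 ± 0.16) were not called (adjusted p = 1.0 each). Of the genes that follow body temperature and heat shock 0 of 8 rose and 0 fell (0 with an unadjusted p under 0.05), with a median of 0.05. Dnajb1 (0.20 ± 0.14), Hspa1a (-0.56 ± 0.54) and Hsp90aa1 (-0.25 ± 0.34) had the smallest p, and the cold-induced Cirbp was at 13.7 ± 4.71 and 13.8 ± 4.07 CPM.

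Genes whose pattern was most like that of Arntl and Dbp were sought outside the members and lists, leaving out predicted genes and numbered clones. The genes searched averaged a log2 CPM of 0 or more (11310 genes). Likeness was Pearson's r over 10 libraries with genotype means removed, as a description. Nearest to Arntl were Ms4a4d (0.93), Cyp4f17 (0.891), Cldn1 (0.887), Inhbc (0.884) and Pa2g4 (0.865), and most opposed were Jak3 (-0.91), Trim7 (-0.899), Tspan17 (-0.891), Msmo1 (-0.888) and Tmem97 (-0.888). Nearest to Dbp were Rab4b (0.978), Nudt16l1 (0.959), Camk2n1 (0.956), Fuz (0.955) and Rnaseh2a (0.954), and most opposed were Sox5 (-0.97), Pdhx (-0.969), Hspa5 (-0.962), Map3k1 (-0.952) and the albumin gene Alb (-0.951). None of these 20 genes belongs to the clock lists by construction, and none was called between the genotypes.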

How the data were processed

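The submitters' processing notes name fastp, HISAT, RSEM and the build GRCm38.p5, with no versions, settings or strand. The authors deposited expected counts (expected count per gene from RSEM) and TPM per gene and library, their group means of TPM, a gene length, and their own log2 fold change and p-value, which were not used. Columns named CON were taken as the wild type libraries of the same number. Expected counts, of which 7.68% were not whole, were rounded; 4 rows without a gene were left out.

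Genes passing filterByExpr (13619) were scaled by TMM and tested with edgeR 4.0.16 (R 4.3.3), quasi-likelihood, robust, with Benjamini-Hochberg adjustment; standard errors derive from F. The procedure was tested on simulated data. Log2 CPM used a prior count of 2. Correlations used 100000 permutations, except Pearson's r with genotype means removed, whose p came from all permutations within the genotypes. Pairs of libraries differed by at least 27.42 chi-square per degree of freedom. Depth limits precision, and count limits cover counting error only. The members, lists and tests were chosen with earlier results of these data known. Named genes were the members, the called and the 3 lowest-p genes of each list, and genes most like Arntl and Dbp; Fkbp5, Tsc22d3 and Cirbp were added after their values were seen, and 1 gene of the feeding list is not reported here by name. Alternatives were other scalings, filters, DESeq2 1.42.0, limma-voom with library quality weights (limma 3.58.1), limma on log2(TPM + 1), sva 3.50.0, a replicate block and libraries left out. Coordinates are from GENCODE M21 (GRCm38), promoters from RefSeq.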

Additional observations from a re-analysis of the deposited data

Results flagged for a closer look

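Among 20 groups of 5 libraries examined (9 clock genes and the contrast, in each genotype), 1 held a sample far from the others, and chance flags about 1 in 20. Per2 in wild type replicate 3 stood at 31.3 CPM, and wild type replicates 1, 2, 4 and 5 had 24.0 to 25.7 CPM.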

How the results depend on the processing

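The count of called clock genes was 0 under every alternative run. The count of called genes among all tested, 18, became 99 with DESeq2, 43 with the first surrogate variable as covariate, 11 with limma on log2(TPM + 1), 10 without wild type replicates 1 and 2, 4 without knockout replicates 3 and 5, and 6 to 21 with single libraries left out; the cause was not tested. Same-numbered libraries of the 2 genotypes had correlations from -0.409 to 0.426. Of the 10 libraries, 4 were closest to the library of their own number in the other genotype. Whether replicate numbers pair the samples was not tested. A replicate block gave 26 called genes and 0 clock genes. Small fold changes changed sign without a call. With library totals only, Cry1 was at 0.007 and Nr1d1 at 0.005, and on log2(TPM + 1) Cry1 was at 0.011. With limma-voom and its library quality weights Nr1d2 was at -0.039. With single libraries left out, Nr1d1 ran from -0.199 to 0.016, Nr1d2 from -0.065 to 0.176, Per1 from -0.011 to 0.276, Arntl from -0.382 to -0.078, Clock from -0.381 to -0.052, Cry1 from -0.16 to -0.011, Dbp from 0.151 to 0.354, Per2 from 0.017 to 0.322 and Per3 from 0.235 to 0.545. Without wild type replicates 1 and 2, Nr1d2 was at -0.103. Without knockout replicates 3 and 5, Per1 was at -0.107, Per2 at -0.181 and Nr1d1 at 0.062. Arntl, Clock, Dbp and Per3 kept their sign in all 21 alternatives (adjusted p from 0.187 to 1.0). The contrast kept its sign throughout, from -0.398 to -0.143 with single libraries left out. Both omissions of 2 libraries, the contrast without Npas2 and that with Clock alone, and the use of log2(TPM + 0.1) for spread and correlations were chosen after seeing the data. Npas2, at 0 to 5 counts, did not pass the filter on low counts of the main fit. The share of counting error in the spread of Arntl, at 18 to 65 counts, was not tested.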
